A study of Homo sapiens with 3 samples.

Results

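Chromosomal DNA is copied by a set of proteins that assemble on replication origins and travel with the fork, and 46 genes that encode them, or that time their use, were followed here through the footprints of ribosomes. The genes were taken by name, as subunits of the origin recognition complex, the replicative helicase and its activators, the sliding clamp and its loader, the replicative polymerases, replication protein A, flap removal and ligation, thymidylate supply and the switch from G1 to S phase. All 46 were among the 63241 genes listed and among the 19820 that passed the filter on low counts. The rule that chose them uses names and roles, not measured values, but the list was drawn up with earlier results of these data known. Ribo-seq, which sequences the pieces of mRNA that ribosomes protect from nuclease, had been done on HEK293T cells, a human line of embryonic kidney origin, labelled epithelial, in which SV40 large T antigen is expressed; this viral protein is a known binder of p53 and of the retinoblastoma proteins. The cells expressed a construct of WT p53, of p53 G245S or of p53 R273H, both hotspot substitutions in the DNA-binding domain. Each group was 3 dishes, pooled within the group at reverse transcription, so that group and pool cannot be told apart in any comparison and the spread between dishes lacks whatever arose after pooling. All dishes were held for 2 min in cycloheximide, washed with 100 μg/mL of it and their lysates were treated with micrococcal nuclease for 30 min (3 U for each μg RNA) before monosomes were taken from a gradient. The labels call the cells both stable and transient, the treatment entry of the mutants names the WT construct, and the titles were therefore used for grouping. HEK293T cells have p53 of their own, which all 3 groups share, and a group without a construct was not analysed here.

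As background, replication begins in G1, when the origin recognition complex with CDC6 and CDT1 loads the MCM2-7 hexamer on DNA as an idle helicase. In S phase CDC45 and the GINS complex join it, and the resulting helicase opens the duplex, RPA coats the single strands, polymerase alpha and its primase lay down primers, and polymerases epsilon and delta extend them on the clamp PCNA, which the RFC complex loads. FEN1 removes flaps between Okazaki fragments and LIG1 seals them, while TYMS and TK1 supply thymidylate. Many of these genes are transcribed by E2F factors, which retinoblastoma proteins restrain, and WT p53 is known to act on the cell cycle through CDKN1A, a cyclin-dependent kinase inhibitor upstream of the retinoblastoma proteins.

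Promoters are shown for 5 genes, MCM6 and MCM3 with the largest rises in G245S and TYMS, LIG1 and PCNA with the largest falls. POLE2, MCM2, CDC45 and UHRF1, which changed more than PCNA in G245S, are not shown. In R273H POLE2, PRIM1, POLA1, CDC45 and E2F1 rose more than MCM3. The promoters are RefSeq windows of build GRCh38.p14, from 250 bases before to 50 bases after a transcription start, read 5′ to 3′ on the strand of the gene. MCM6 is at chr2:135876394-135876693 on the minus strand, MCM3 at chr6:52284693-52284992 on the minus strand, TYMS at chr18:657403-657702 on the plus strand, LIG1 at chr19:48170295-48170594 on the minus strand, and PCNA at chr20:5126573-5126872 on the minus strand. Capitals mark matches to an E2F motif, spelled TTTCCCGC, TTTCGCGC, TTTGCCGC or TTTGGCGC and searched on both strands, with overlapping matches merged.
MCM6: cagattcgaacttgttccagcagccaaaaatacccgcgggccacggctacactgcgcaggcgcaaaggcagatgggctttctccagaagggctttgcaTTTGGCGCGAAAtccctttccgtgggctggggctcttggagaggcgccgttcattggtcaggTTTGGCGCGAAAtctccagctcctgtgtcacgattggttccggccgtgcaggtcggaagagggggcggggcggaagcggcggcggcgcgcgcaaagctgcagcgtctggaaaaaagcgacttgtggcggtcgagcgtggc
MCM3: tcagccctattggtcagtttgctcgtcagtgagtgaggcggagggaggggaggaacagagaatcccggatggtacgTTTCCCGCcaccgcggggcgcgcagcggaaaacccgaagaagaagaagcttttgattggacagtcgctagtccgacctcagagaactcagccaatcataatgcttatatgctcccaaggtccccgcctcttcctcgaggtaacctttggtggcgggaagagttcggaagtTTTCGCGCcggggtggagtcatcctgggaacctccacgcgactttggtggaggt
TYMS: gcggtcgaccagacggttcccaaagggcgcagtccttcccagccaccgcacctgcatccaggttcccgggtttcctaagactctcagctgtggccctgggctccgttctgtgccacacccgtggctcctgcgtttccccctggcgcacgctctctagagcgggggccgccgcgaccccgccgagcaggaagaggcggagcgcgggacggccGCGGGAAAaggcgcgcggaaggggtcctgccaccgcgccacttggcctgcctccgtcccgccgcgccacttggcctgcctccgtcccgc
LIG1: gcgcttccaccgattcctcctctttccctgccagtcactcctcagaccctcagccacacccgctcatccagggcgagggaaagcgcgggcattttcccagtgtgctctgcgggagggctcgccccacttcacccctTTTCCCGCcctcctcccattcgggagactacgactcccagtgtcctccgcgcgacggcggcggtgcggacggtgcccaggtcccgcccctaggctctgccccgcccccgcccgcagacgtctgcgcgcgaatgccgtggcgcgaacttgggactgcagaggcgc
PCNA: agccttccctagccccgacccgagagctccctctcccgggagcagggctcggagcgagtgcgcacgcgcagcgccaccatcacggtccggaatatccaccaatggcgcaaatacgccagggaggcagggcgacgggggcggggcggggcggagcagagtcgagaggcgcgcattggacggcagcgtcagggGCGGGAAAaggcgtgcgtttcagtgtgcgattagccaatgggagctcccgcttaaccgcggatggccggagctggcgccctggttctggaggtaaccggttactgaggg

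The motif stood at 2 places in the MCM6 window and at 2 in the MCM3 window, and once each in those of TYMS, LIG1 and PCNA; a second annotated start of PCNA had none. Of the 46 genes 39 had a promoter in the RefSeq set, with 50 starts, and 21 of those 50 windows (42%) held the E2F motif, against 3.31% of all 35116 promoters of the same length. The genes shown above all held the motif, but only 20 of the 39 genes did. CDC45 and PRIM1, which rose in both mutants, had no match in their windows. The motif did not divide the genes by direction, since 12 of 25 windows of genes higher in both mutants held it, as did 4 of 6 windows of genes lower in both. The CCAAT box (CCAAT) was in 56% of the windows and in 34.6% of all promoters, and the GC box (GGGCGG) in 74% and 45%. A p53 half-site was matched in 4 of 50 windows (8%), those of MCM6, PCNA, PRIM2 and RFC3, against 6.63% of all promoters. The GC box and the E2F motif may share bases, and each was counted on its own. These are matches of letters within the window, not sites of binding. No promoter was in the set for GINS4, POLD3, RPA2, MCM4, RPA3, MCM5 and CCNE2.

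The 9 libraries held 18.7 to 24.6 M expected counts. Within a group dishes 1 and 2 were the closest (chi-square over its degrees of freedom 1.48 to 1.56), and pairs with dish 3 were farther apart (1.88 to 2.62), in all 3 groups. Levels are given as CPM, counts scaled to a common library total after normalization and given per 1e6, and a gene is said to have risen or fallen where edgeR's quasi-likelihood test passed at 0.05 after Benjamini-Hochberg adjustment across the 19820 genes. Footprints of p53 target genes checked the labels of WT against those of the mutants, and cannot check which mutant is which. CDKN1A had 63.5, 60.7 and 59 CPM in the WT dishes, 16.2, 16.5 and 15.8 in G245S, and 13.5, 14.4 and 13.7 in R273H, and MDM2, a ubiquitin ligase that p53 induces, averaged 860 ± 49.3, 76.8 ± 4.2 and 76.7 ± 2.94 CPM (SD, n = 3 dishes). Both genes were lower in all 6 mutant dishes than in any WT dish. Of the markers of epithelium, KRT18 (108 to 121 CPM) and KRT8 (32.4 to 44.5) were high, EPCAM (3.28 to 5.35) and CDH1 (5.24 to 8.58) low, and KRT19 (0 to 0.0508) absent or nearly so. Markers of blood (PTPRC 0 to 0.163, CD68 0.345 to 1.22, HBB 0), endothelium (PECAM1 0 to 0.0467, CDH5 0 to 0.102) and liver (ALB 0 to 0.106) were near 0, and of the fibroblast markers DCN was near 0 (0.108 to 0.42) and COL1A1 was not (25 to 34).

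Both mutants had more footprints on a large part of the replication genes and fewer on a small part, and the differences were mostly small. In dishes of dividing cells, more cells in S phase and more footprints per cell cannot be told apart. In G245S 23 of the 46 genes rose against WT and 7 fell, and in R273H 20 rose and 7 fell. Among all genes tested 12.6% rose and 12.1% fell in G245S, 24.7% in all, and 14.2% rose and 14.6% fell in R273H, 28.8% in all. Since most replication genes are well expressed, the 9153 genes within their range of mean CPM are the nearer background, of which 19.8% rose and 17.8% fell in G245S, and 21.2% rose and 21.4% fell in R273H. This background is given for the main test against WT alone. It was cut at the lowest and highest of the 46 genes and was not matched to their levels in between. The share that rose, 50% and 43.5%, was thus above that background, while the share that fell, 15.2% in each mutant, was not; these shares are a description, with no test between them. The median log2 fold change of the 46 genes was 0.096 in G245S and 0.064 in R273H, against -6.9e-04 and -0.0024 over all genes tested. Together the genes took 0.734% ± 0.00218 of all WT counts (SD, n = 3 dishes), which compares with 0.773% ± 8.93e-04 for G245S and 0.767% ± 0.00139 for R273H, and no mutant dish overlapped a WT dish. MCM4, MCM7 and MCM2 had the most footprints of the 46 genes in WT (means of 576, 475 and 441 CPM) and rose in both mutants. Such genes weigh most in the summed share, which therefore does not speak for the set as a whole. The dishes of the 2 groups did not overlap for 31 of the genes in G245S and 28 in R273H, against 37.4% and 41.2% of all genes tested.

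Both contrasts use the same WT dishes, so their calls are not independent of each other. With that said, 19 genes rose in both (ORC3, ORC5, CDT1, MCM2, MCM3, MCM4, MCM6, MCM7, MCM10, CDC45, RFC3, RFC4, POLA1, PRIM1, POLD1, POLE, POLE2, FEN1 and UHRF1) and 7 fell in both (GINS1, GINS4, PCNA, LIG1, RPA1, RPA3 and TYMS). MCM5, POLD2, POLD3 and TK1 passed the test in G245S alone, E2F1 in R273H alone, and 15 genes in neither. No gene passed in opposite directions. The share of all genes tested that passed in both mutants is not given here, so these counts describe the list and are not a trait particular to it.

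Few of these changes were large. Tested against a minimum fold change of 1.2, 3 genes remained in G245S (MCM6 higher, TYMS and LIG1 lower) and 2 in R273H (TYMS and LIG1), against 2.76% and 3.5% of all genes tested. The plot of fold changes by role sets these sizes side by side.

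**Figure D1:**
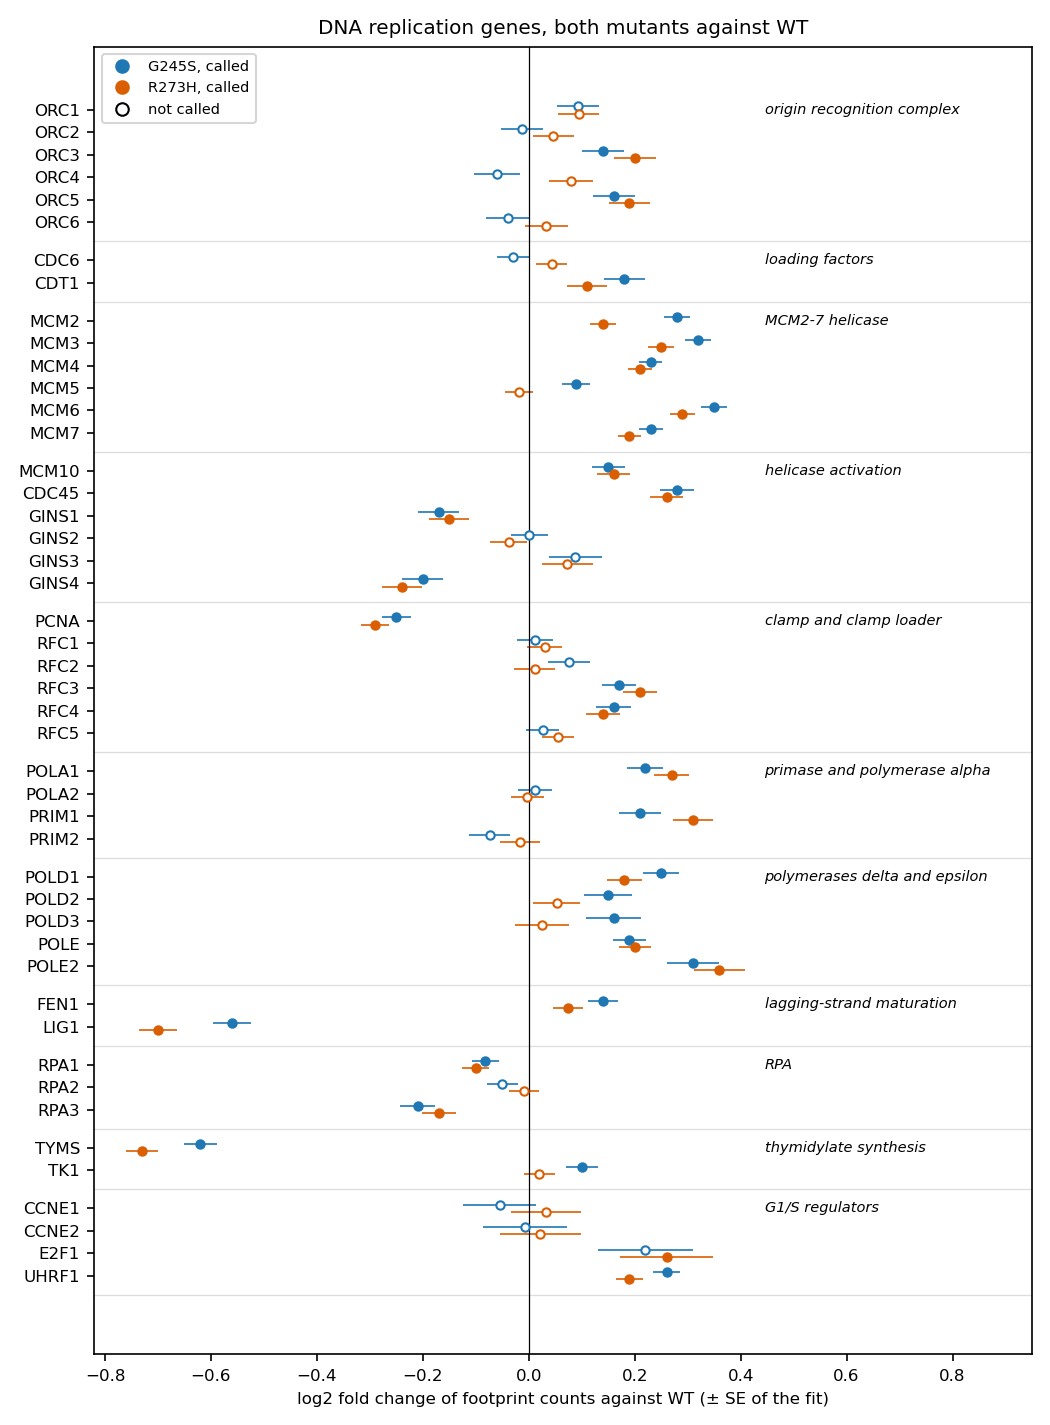
Log2 fold change of footprint counts (horizontal axis, ± SE of the edgeR fit) of each of the 46 genes in G245S (blue) and R273H (orange) against WT, with roles separated by lines and filled points for genes that passed the test. The MCM2-7 genes other than MCM5 stand to the right of 0 in both mutants, and TYMS and LIG1 stand far to the left, between -0.56 and -0.73.

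Origin recognition and helicase loading changed little, with 2 of 6 origin recognition genes and 1 of 2 loading factors higher in each mutant. ORC1, the ATPase subunit whose level follows the cell cycle, had 82.2, 91.1 and 81.9 CPM in the WT dishes, 89.4, 90.9 and 91.7 in G245S, and 87.7, 91.2 and 93.5 in R273H. One WT dish was as high as the mutant dishes, and neither the 0.093 ± 0.0403 of G245S (SE of the log2 fold change, edgeR adjusted p = 0.0956) nor the 0.094 ± 0.0394 of R273H (adjusted p = 0.0745) passed. Of the other subunits, ORC3 (0.14 and 0.20 on the log2 scale in G245S and R273H) and ORC5 (0.16 and 0.19) rose in both mutants, and ORC2, ORC4 and ORC6 lay between -0.06 and 0.08 without passing. CDC6, the loader ATPase, had 176, 173 and 178 CPM in WT, 171, 167 and 178 in G245S and 183, 179 and 181 in R273H, with log2 fold changes of -0.03 (edgeR adjusted p = 0.517) and 0.043 (adjusted p = 0.287). CDT1, its partner in loading and a target of geminin, had 135, 134 and 119 CPM in WT against 152, 147 and 143 in G245S and 137, 142 and 139 in R273H. All mutant dishes were above all WT dishes, though the R273H ones by as little as the lowest at 137 over the highest WT dish at 135. The rise of CDT1 in G245S was 0.18 ± 0.0387 (edgeR adjusted p = 8.9e-04), and that in R273H, 0.11 ± 0.0382 (adjusted p = 0.0398), was lost when WT dish 3, G245S dish 2, any R273H dish or dish 3 of every group was left out and with DESeq2.

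The MCM2-7 helicase rose in both mutants apart from MCM5, which rose in G245S alone. All 6 genes passed the test in G245S and 5 of 6 in R273H, with a median log2 fold change of 0.26 and 0.20. MCM6 (ENSG00000076003), on chromosome 2 (GRCh38, 135839626 to 135876443), changed most, from 323, 321 and 327 CPM in the WT dishes to 414, 404 and 417 in G245S and 392, 394 and 404 in R273H. Its 3 groups did not overlap, and the WT dishes were the lowest. This was a log2 fold change of 0.35 ± 0.0245 in G245S (edgeR adjusted p = 7.5e-12), or 27.2% more footprints, and of 0.29 ± 0.0243 in R273H (adjusted p = 2.3e-10). MCM3, on chromosome 6 (52264014 to 52284881), had 302, 296 and 294 CPM in WT, 369, 368 and 375 in G245S and 355, 352 and 358 in R273H, a rise of 24.7% and 19.3%.

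MCM2, which also binds histones H3 and H4, had 440, 444 and 439 CPM in the WT dishes, 547, 540 and 518 in G245S and 485, 491 and 486 in R273H. The G245S dishes stood above those of R273H, which stood above those of WT. MCM4 had 572, 576 and 581 CPM in WT, 674, 665 and 681 in G245S and 668, 662 and 668 in R273H, and MCM7, whose gene also hosts 3 microRNAs (MIR106B, MIR25 and MIR93), had 473, 479 and 472, then 554, 567 and 552, then 544, 541 and 544. In both genes the mutant dishes were close to each other and apart from WT. MCM4 rose by 16.9% and 15.6% and MCM7 by 17.5% and 14.4% in G245S and R273H.

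MCM5 was the exception. It had 338, 332 and 324 CPM in the WT dishes, 356, 356 and 345 in G245S and 323, 338 and 320 in R273H, so that 1 R273H dish lay within the range of WT, at its top, and the other two lay just below it. Its log2 fold change was 0.089 ± 0.0268 in G245S (edgeR adjusted p = 0.0149), a call that was lost when G245S dish 1 or 2 was left out, and -0.019 ± 0.0266 in R273H (adjusted p = 0.642). Per kilobase of coding region, which is the scale on which genes can be compared, MCM5 was above MCM6 in WT (150 ± 3.15 and 131 ± 1.35 CPM per kb) and below it in G245S (160 ± 2.8 and 167 ± 2.64) and R273H (148 ± 4.35 and 161 ± 2.56). The ratio of MCM5 to MCM6 was 1.17, 1.16 and 1.11 in the WT dishes, 0.962, 0.984 and 0.926 in G245S and 0.922, 0.958 and 0.886 in R273H. The pair was picked after the values were seen, and no test was made of it.

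**Figure D2:**
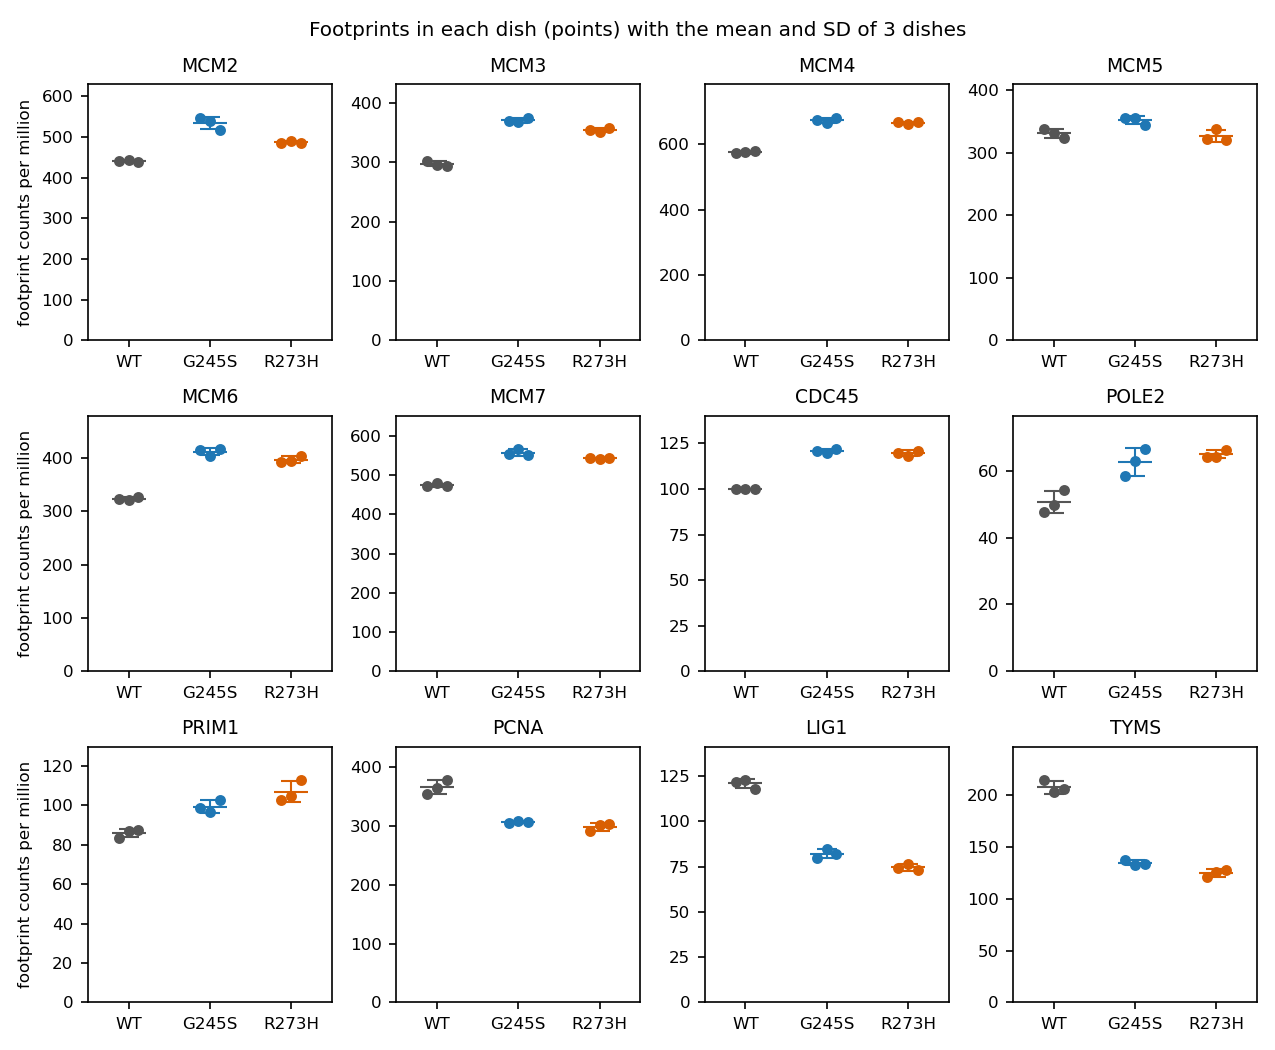
Footprint CPM (vertical axes, each from 0) of 12 genes in each dish, with points for dishes and bars for the mean and SD of 3 dishes. For MCM6 the 3 WT dishes lie between 321 and 327 CPM and the 6 mutant dishes between 392 and 417, while for TYMS the WT dishes lie between 203 and 215 and the mutant dishes between 121 and 138.

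The factors that activate the helicase split. CDC45, which binds the MCM ring at origin firing, had 99.8, 99.9 and 100 CPM in the WT dishes, 121, 120 and 122 in G245S and 120, 118 and 121 in R273H. The mutants did not differ from each other beyond their spread, and both stood above WT by 0.28 ± 0.0314 (edgeR adjusted p = 1.0e-07) and 0.26 ± 0.0308 (adjusted p = 1.7e-07) on the log2 scale. MCM10, a scaffold of the early fork, rose by 0.15 and 0.16. In the GINS complex, the other partner of the ring, 2 of 4 subunits fell and the other two did not pass. GINS1 fell by 0.17 and 0.15 and GINS4 fell by 0.20 and 0.24 on the log2 scale in G245S and R273H, and GINS2 (9.4e-04 and -0.038) and GINS3 (0.088 and 0.073) did not pass. GINS3 passed as higher in both mutants, at 0.14 in each, once the trend in GC content and length of the libraries was removed (edgeR adjusted p = 0.0142 and 0.0107). The per-kilobase ratio of GINS4 to CDC45 was 2.47 ± 0.0536 in WT, 1.77 ± 0.0881 in G245S and 1.74 ± 0.0527 in R273H, another ratio chosen after the values were seen.

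At the clamp and its loader the directions were opposite. PCNA, the ring that tethers polymerases to DNA (ENSG00000132646, chromosome 20, 5114953 to 5126626), fell from 354, 364 and 378 CPM in the WT dishes to 305, 309 and 306 in G245S and 291, 302 and 303 in R273H. No mutant dish reached the lowest WT dish. Its log2 fold change was -0.25 ± 0.0269 in G245S (edgeR adjusted p = 3.2e-08) and -0.29 ± 0.0267 in R273H (adjusted p = 1.6e-09). PCNA is also known as a gene that p53 can activate, and 3 annotated pseudogenes (PCNAP1, PCNAP3 and PCNAP4) make its count less certain, since the sharing of reads with several matches is not stated. Of the loader, RFC3 (0.17 and 0.21) and RFC4 (0.16 and 0.14) rose in both mutants, and RFC1, RFC2 and RFC5 lay between 0.011 and 0.076 and passed in neither. EIF4A2, which overlaps RFC4 on the other strand at 102 CPM in WT, did not pass (-0.071 and 0.005). Per kilobase PCNA was 4.10 ± 0.034 times RFC4 in WT, 3.09 ± 0.136 times in G245S and 3.05 ± 0.0434 times in R273H, a ratio likewise picked after the values were seen.

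The catalytic chains of the polymerases rose. POLA1, which extends primers, had 106, 108 and 115 CPM in the WT dishes, 127, 124 and 131 in G245S and 131, 132 and 134 in R273H, which is 16.2% and 20.7% more. PRIM1, the catalytic primase subunit, had 83.7, 86.8 and 87.3 CPM in WT, 98.5, 96.8 and 103 in G245S and 103, 105 and 113 in R273H. Here R273H had the higher mean of the 2 mutants, but their difference of -0.10 ± 0.037 in log2 (G245S against R273H) did not pass the edgeR test (adjusted p = 0.155). PRIM1 shares its strand and part of its span with NACA, which was far more abundant (779 CPM in WT) and rose by 0.096 and 0.098, less than PRIM1 at 0.21 and 0.31, and with an unnamed gene at 7.83 CPM in WT that rose by 0.38 and 0.55. The accessory subunits POLA2 (0.011 and -0.0028) and PRIM2 (-0.074 and -0.017) did not pass in either mutant.

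Among the chain-extending polymerases, POLE2, the second subunit of polymerase epsilon, changed most. It had 47.7, 49.8 and 54.1 CPM in the WT dishes, 58.4, 62.9 and 66.5 in G245S and 64.2, 64.1 and 66.2 in R273H. The lowest mutant dish, at 58.4, was above the highest WT dish, at 54.1. The log2 fold changes were 0.31 ± 0.0496 (edgeR adjusted p = 2.6e-05) and 0.36 ± 0.0482 (adjusted p = 1.7e-06), among the largest of the rising genes but with a wider error than those of the MCM genes, at a level that is several times lower. POLE, the catalytic subunit, rose by 0.19 and 0.20 and POLD1, that of polymerase delta, by 0.25 and 0.18. POLD2 (0.15 and 0.053) and POLD3 (0.16 and 0.025) passed in G245S alone, and the difference between the mutants passed for neither (edgeR adjusted p = 0.296 and 0.159).

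Steps that complete the lagging strand moved apart. LIG1, the ligase that joins Okazaki fragments (ENSG00000105486, chromosome 19, 48115445 to 48170603), had 122, 123 and 118 CPM in the WT dishes, 79.6, 84.9 and 82.2 in G245S and 74.2, 76.5 and 73.1 in R273H. The 3 groups did not overlap, and R273H was lowest. Its log2 fold change was -0.56 ± 0.0355 in G245S (edgeR adjusted p = 7.1e-13) and -0.70 ± 0.0351 in R273H (adjusted p = 2.3e-15), so that its footprints fell by 32% and fell by 38.4%. FEN1, the flap nuclease that precedes the ligase, rose by 0.14 and 0.074, in R273H just within the threshold (edgeR adjusted p = 0.0451). FEN1 overlaps FADS2 on the same strand, and FADS2 rose more (0.41 and 0.30, from 59.8 CPM in WT), so the share of its reads in the FEN1 count was not tested. Per kilobase LIG1 was 0.256 ± 0.0124 of FEN1 in WT, 0.158 ± 0.00684 in G245S and 0.15 ± 0.00451 in R273H, also a ratio picked after the values were seen. Of RPA, the single-strand binding complex, 2 of 3 subunits fell, RPA1 (-0.082 and -0.10) and RPA3 (-0.21 and -0.17), and RPA2 (-0.05 and -0.0096) did not pass. Pseudogenes are annotated for RPA2 (3) and RPA3 (2).

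Thymidylate supply held the gene with the largest change of all 46. TYMS, thymidylate synthase, which makes dTMP from dUMP (ENSG00000176890, chromosome 18, 657653 to 673578), had 215, 203 and 206 CPM in the WT dishes, 138, 133 and 134 in G245S and 121, 126 and 128 in R273H. The lowest WT dish was far above the highest mutant dish. Its log2 fold change was -0.62 ± 0.0312 in G245S (edgeR adjusted p = 2.7e-15) and -0.73 ± 0.0308 in R273H (adjusted p = 3.5e-17). ENOSF1, which overlaps TYMS on the other strand, was much lower (16.5 CPM in WT) and did not pass the test (-0.076 and -0.028), and 2 pseudogenes of TYMS are annotated. TK1, the salvage kinase for thymidine, had 148, 144 and 143 CPM in WT, 158, 158 and 151 in G245S and 148, 148 and 146 in R273H. It rose in G245S by 0.10 ± 0.0299 (edgeR adjusted p = 0.0149), a call lost without WT dish 2, G245S dish 1 or G245S dish 2, and did not pass in R273H (0.02, adjusted p = 0.658). With a trend in GC content and coding length removed from each library, it rose in both mutants, by 0.14 and 0.11 (adjusted p = 1.61e-05 and 2.48e-04). The per-kilobase levels of TYMS and TK1 were 221 ± 6.4 and 207 ± 3.62 in WT, with TYMS the higher, and 144 ± 2.99 and 222 ± 5.52 in G245S and 133 ± 3.9 and 210 ± 1.42 in R273H, with TK1 the higher.

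E2F1 and the E-type cyclins, among the regulators of S-phase entry, had the lowest levels of the set, and UHRF1 did not. E2F1, a transcription factor for many of the genes above, had 12.6, 10 and 11.7 CPM in the WT dishes, 14.1, 12.4 and 13.6 in G245S and 13.5, 13.6 and 14.1 in R273H. The R273H dishes were all above WT, whereas 1 G245S dish was below the highest WT dish. The log2 fold change was 0.22 ± 0.0902 in G245S (edgeR adjusted p = 0.0751) and 0.26 ± 0.0872 in R273H (adjusted p = 0.0244), and the latter was lost without WT dish 2, R273H dish 3 or dish 3 of every group and with DESeq2. The E-type cyclins, which drive CDK2 into S phase, did not pass in either mutant, CCNE1 having 18.5, 18.9 and 18.7 CPM in WT, 18.9, 17.1 and 18 in G245S and 18.3, 20.1 and 19 in R273H. CCNE2 had 15.7, 15.4 and 14.9 in WT, 14.8, 14.7 and 16.3 in G245S and 17, 14.9 and 14.9 in R273H. The groups overlapped for both cyclins. CCNE2 overlaps INTS8 (77.7 CPM in WT, 0.18 and 0.29) and NDUFAF6 (17.3 CPM in WT, -0.53 and -0.61) on the other strand, and both of those passed in both mutants. UHRF1, which brings DNA methylation to newly copied DNA, averaged 279 ± 5.79 CPM in WT (SD, n = 3 dishes) with 285 in the highest dish, had 342, 336 and 326 in the dishes of G245S and 322, 318 and 315 in those of R273H, and rose by 0.26 ± 0.0262 (edgeR adjusted p = 9.0e-09) and 0.19 ± 0.026 (adjusted p = 1.7e-06).

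Levels per kilobase of coding region ordered the genes within each complex in a way that was largely kept between groups. In WT the MCM genes ran from MCM3 at 123 ± 1.59 CPM per kb through MCM6, MCM5 and MCM2 to MCM7 at 220 ± 1.85 and MCM4 at 223 ± 1.75, the last pair not separable by their spread. MCM5 changed places with MCM6 in both mutants, and the order of the others was the same. RFC1, the large subunit, was the lowest of the clamp loader in all 3 groups (41.7, 42.1 and 42.6 CPM per kb), and RFC2 to RFC5 lay between 88.3 and 127 in WT. ORC1 was the lowest of its complex (32.9 ± 2.03 in WT) and ORC4 the highest (89.7 ± 5.14), although ORC6 at 86.8 ± 2.64 was within the spread of ORC4. The highest levels of the whole set were those of RPA3 (535 ± 19.4) and PCNA (467 ± 15.4), and the lowest was that of E2F1 (8.72 ± 0.978).

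**Figure D3:**
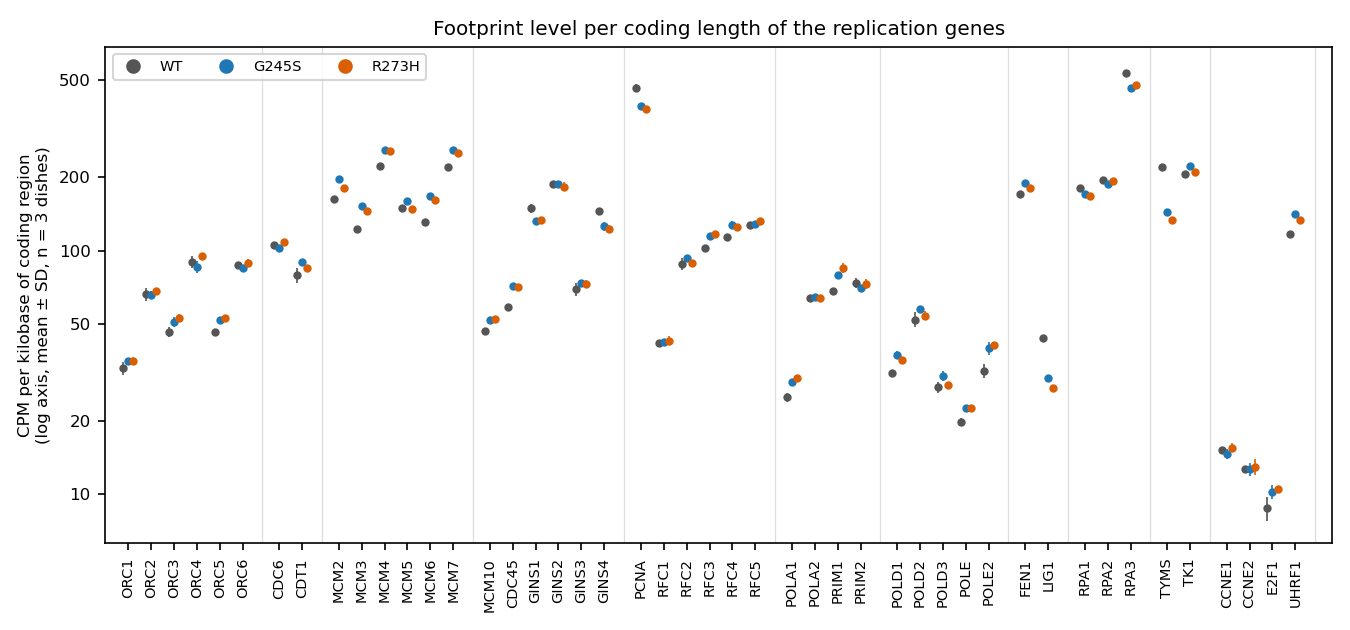
Footprint CPM per kilobase of coding region (vertical axis, logarithmic) of the 46 genes in WT (grey), G245S (blue) and R273H (orange), as the mean ± SD of 3 dishes, in the order of the roles. Levels span from 8.72 CPM per kb for E2F1 to 535 for RPA3 in WT, and the differences between groups are small beside those between genes, apart from TYMS and LIG1.

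The change of a gene went with the length of its coding region. Over the 46 genes Spearman's rho of the log2 fold change with coding length was 0.50 in G245S and 0.46 in R273H, while it was 0.23 and -0.056 with GC content and 0.18 and 0.049 with mean CPM. These values describe genes that share the same libraries. The libraries themselves differed in this respect, as over 10886 genes the deviation of a library from the mean of all went with coding length at a rho of -0.177 to -0.14 in WT, -0.0117 to 0.116 in G245S and 0.14 to 0.196 in R273H. Among the genes that fell, RPA3 (363 nt), GINS1 (588 nt), GINS4 (669 nt), PCNA (783 nt) and TYMS (939 nt) are short, and LIG1 (2757 nt) and RPA1 (1848 nt) are not. After a smooth trend in GC content and coding length was taken out of each library, 33 genes passed in G245S (26 higher, 7 lower) and 31 in R273H (24 higher, 7 lower), against 37.5% and 38.8% of the 13619 genes tested this way, and the medians were 0.14 and 0.086. TYMS (-0.59 and -0.69), LIG1 (-0.57 and -0.69), PCNA (-0.21 and -0.27) and MCM6 (0.35 and 0.27) stayed close to their values above, and all 4 passed in both mutants. In G245S RPA3 (-0.21 to -0.12) and GINS1 (-0.17 to -0.11) shrank by more than 1.5 times and still passed. No call was lost, and the calls gained were ORC1, GINS3 and RFC2 in G245S and ORC1, GINS3, RFC5 and TK1 in R273H.

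**Figure D4:**
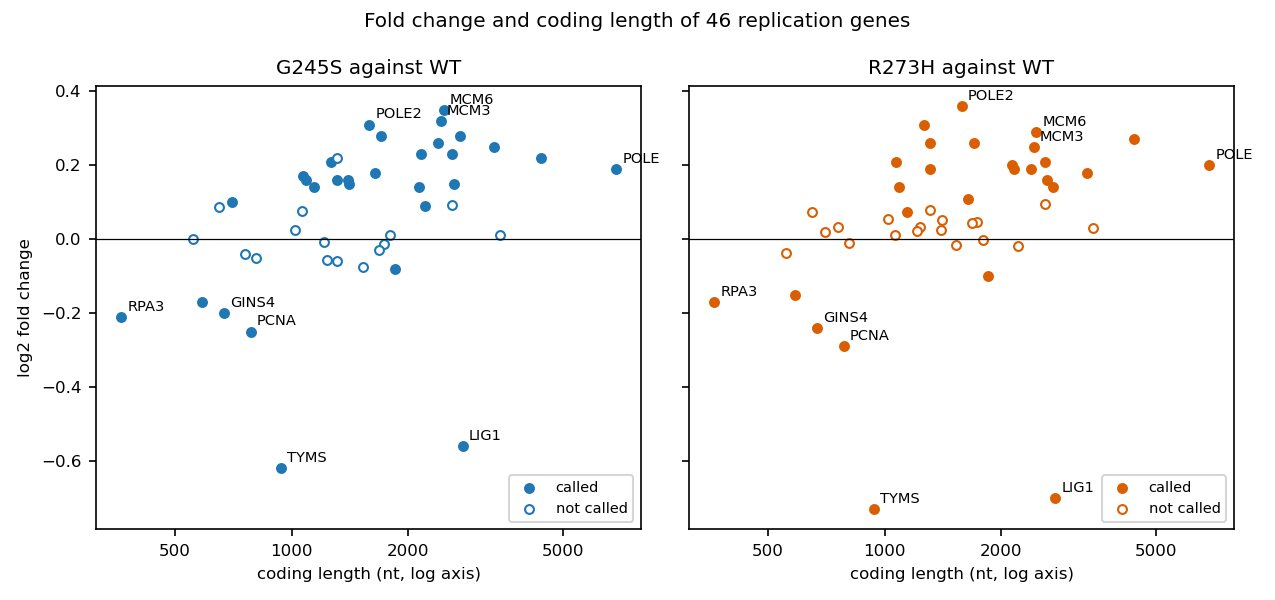
Log2 fold change against WT (vertical axis) and coding length in nucleotides (horizontal axis, logarithmic) of the 46 genes, for G245S on the left and R273H on the right, with filled points for genes that passed the test. Longer genes tend to lie higher (rho 0.50 and 0.46), and LIG1, at 2757 nt, lies far below genes of its length.

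Between the 2 mutants few genes differed. In G245S against R273H 3 of the 46 genes passed the test, all higher in G245S, against 2.59% of all genes tested (1.86% higher and 0.732% lower), and the median log2 fold change was 0.014. MCM2 was higher by 0.13 ± 0.0239 (edgeR adjusted p = 0.00169), with all G245S dishes above all R273H dishes. MCM5 was higher by 0.11 ± 0.0264 (adjusted p = 0.0229), a call lost when G245S dish 1 or 2 or R273H dish 1 or 3 was left out. LIG1, which fell in both, was higher by 0.14 ± 0.0367 (adjusted p = 0.0324), a call lost without G245S dish 2, any R273H dish or dish 3 of every group and with DESeq2. TYMS, at 0.11 ± 0.032, came near the threshold (edgeR adjusted p = 0.0523). The dishes of the mutants did not overlap for 18 of the 46 genes, against 21.5% of all genes tested.

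The other genes of the pathway were taken from a list of 60 that act in origin firing, at the fork, in nucleotide synthesis, in the control of G1 to S and in replication-coupled chromatin. In G245S 17 rose and 10 fell, and in R273H 21 rose and 13 fell, with median log2 fold changes of 0.056 and 0.063. These calls were 45% and 56.7% of the list, against 24.7% and 28.8% of all genes tested. The nearer background is the 9153 genes within the CPM range of the DNA replication genes. In G245S 28.3% of the list rose and 16.7% fell, against 19.8% and 17.8% of that background. In R273H 35% rose and 21.7% fell, against 21.2% and 21.4%. CCND1, the D-type cyclin that starts phosphorylation of the retinoblastoma proteins, changed most in G245S, from 53.6, 55.2 and 51.3 CPM in the WT dishes to 77.2, 78.2 and 70.9 in G245S and 71, 75.2 and 67.7 in R273H, a rise of 0.50 ± 0.047 (edgeR adjusted p = 4.4e-09) and 0.42 ± 0.0462 (adjusted p = 7.0e-08). All mutant dishes were above all WT dishes. POLD4, the smallest subunit of polymerase delta, had 17.1, 13.9 and 15 CPM in WT, 12, 11.8 and 9.29 in G245S and 11.6, 10.4 and 11.9 in R273H, and fell by 0.49 and 0.45 on the log2 scale, unlike POLD1, the catalytic chain.

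Nucleotide supply other than thymidylate rose in part. CAD, which starts pyrimidine synthesis, had 254, 251 and 240 CPM in the WT dishes, 313, 316 and 303 in G245S and 307, 308 and 304 in R273H (0.32 and 0.30), and SLC29A1, a nucleoside transporter, had 108, 101 and 95.1, then 135, 124 and 128, then 120, 123 and 120 (0.35 and 0.26). The mutant dishes were above the WT dishes for both. Of the 10 genes in this role 5 rose and 1 fell in G245S, and 6 rose and 1 fell in R273H. That was 60% and 70% of them, against 24.7% and 28.8% of all genes tested. Within the CPM range of the DNA replication genes 19.8% of genes rose and 17.8% fell in G245S, and 21.2% rose and 21.4% fell in R273H. Of the nucleotide genes 50% rose and 10% fell in G245S, and 60% rose and 10% fell in R273H. E2F2, a relative of E2F1, had 17.1, 18.8 and 16.7 CPM in WT, 22.4, 22.4 and 19.1 in G245S and 22.1, 21.7 and 22.2 in R273H (0.28 and 0.33, edgeR adjusted p = 0.00547 and 7.7e-04). ASF1B, a histone chaperone at the fork, fell from 71.8, 68.1 and 66.4 CPM to 60.4, 56.2 and 56.7 in G245S and 56.6, 54.7 and 53.8 in R273H (-0.25 and -0.32). Between the mutants 1 of the 60 passed, RNASEH2C, a subunit of ribonuclease H2, which was named after its values were seen and was 0.16 higher in G245S than in R273H (edgeR adjusted p = 0.0157). That was 1.67% of the list, against 2.59% of all genes tested.

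A list of 28 genes of G2 and mitosis served for comparison. In G245S 8 of them rose and 4 fell, and in R273H 4 rose and 7 fell, and the median log2 fold changes were 0.009 and -0.035. These calls were 42.9% and 39.3% of the list, against 24.7% and 28.8% of all genes tested. The nearer background is again the 9153 genes within the CPM range of the DNA replication genes. In G245S 28.6% of the list rose and 14.3% fell, against 19.8% and 17.8% of that background. In R273H 14.3% rose and 25% fell, against 21.2% and 21.4%. The list was thus above that background for rises in G245S and for falls in R273H, and below it for the other direction in each. The fold changes of the 28 genes lay between -0.18 and 0.19, and none was as large in size as that of TYMS, LIG1, PCNA or MCM6. Between the mutants 3 of the 28 passed, all higher in G245S, and they were PLK1 (0.11), MKI67 (0.16) and KIF20A (0.10), named after their values were seen. That was 10.7% of the list, against 2.59% of all genes tested. The lists were not tested against each other.

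**Figure D5:**
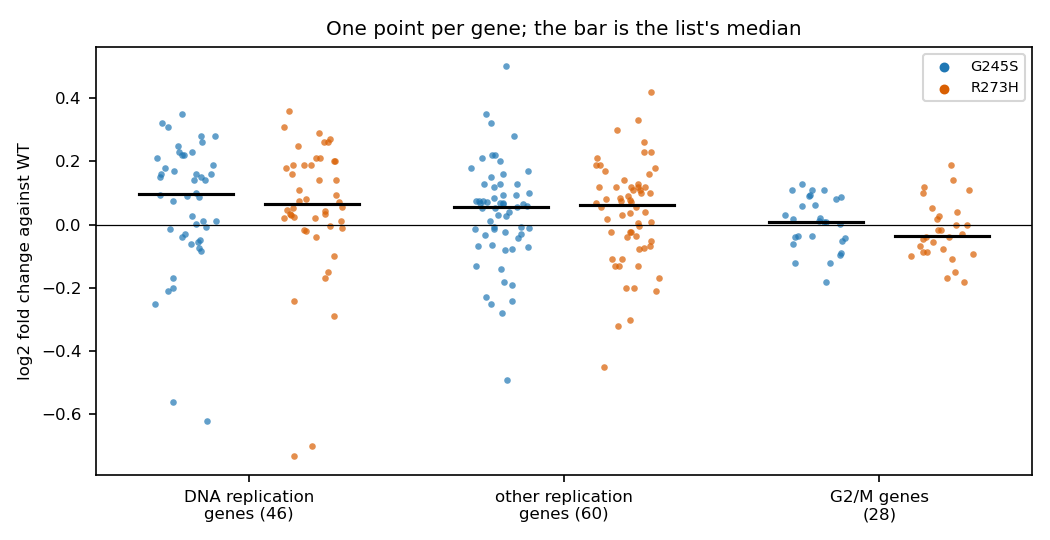
Log2 fold change against WT (vertical axis) of each gene in G245S (blue) and R273H (orange), for the 46 DNA replication genes, 60 other replication genes and 28 genes of G2 and mitosis, with 1 point per gene, jittered sideways, and a bar at each median. The medians in G245S and R273H are 0.096 and 0.064 for the first list, 0.056 and 0.063 for the second and 0.009 and -0.035 for the third.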

How the data were processed

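Footprint libraries of 9 dishes (3 each of WT, G245S and R273H) were compared. Before deposition the authors trimmed reads, filtered rRNA and aligned with STAR to GRCh38. The deposited table holds expected counts per gene, unscaled estimates of which 61.5% to 63.7% of those above 0 were not whole. The counting tool, the use of strand and the treatment of reads with several matches are not given in the sources used here.

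The expected counts were rounded, and edgeR 4.0.16 (R 4.3.3) was run with TMM, filterByExpr, robust glmQLFit and two-sided glmQLFTest. A single fit took the 9 dishes, with a mean for each group (6 residual degrees of freedom, biological coefficient of variation 2.58%), and the procedure was tested on simulated data. Dishes were taken as replicates on the word of the labels, and p-values measure only the spread between them. CPM are TMM-scaled and SE come from the fit. Coding lengths and gene coordinates are those of GENCODE v44 (GRCh38). A fold change is relative to the rest of its library, since neither a spike-in nor matched RNA-seq was used here, and mRNA abundance cannot be told apart from ribosome load per mRNA.

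The members and the other lists were chosen with earlier results of these data known. Values per dish are given for a fixed set of members (PCNA, MCM2 to MCM7, CDC6, CDT1, ORC1, E2F1, CCNE1, CCNE2, TYMS, TK1 and UHRF1), for the 8 called members with the largest change in each comparison, for the 4 called other replication genes with the largest change in each mutant, and for CDKN1A and MDM2; the remaining members are given by fold changes and counts. Alternatives included DESeq2 1.42.0, other normalizations, no filter, unrounded counts, a block on dish number, removal of a loess trend (span 0.5) on GC content and coding length, and each dish left out.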

Additional observations from a re-analysis of the deposited data

Results flagged for a closer look

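The genes MCM2, MCM5 and LIG1 differed between the 2 mutants by the test of that difference itself, in the edgeR fit of all 9 dishes. MCM2 was higher in G245S than in R273H by 0.13 in log2 (adjusted p = 0.00169), and it had risen against WT by 0.28 in G245S and 0.14 in R273H. MCM5 was higher by 0.11 (adjusted p = 0.0229), with 0.089 and -0.019 against WT. LIG1 was higher by 0.14 (adjusted p = 0.0324), with -0.56 and -0.70 against WT. MCM2 kept its call in every fit that left out 1 dish and lost it only against a minimum fold change of 1.2. MCM5 lost it in 4 of the fits with 1 dish left out, and LIG1 in 4. No explanation of these differences was tested.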

How the results depend on the processing

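The counts of genes that rose or fell against WT were within 1.5 times their main value under every alternative but 1, the test against a minimum fold change of 1.2, which left 3 in G245S, 2 in R273H and 0 between the mutants. With each dish left out in turn, 26 to 30 genes passed in G245S and 24 to 27 in R273H, DESeq2 gave 29 and 24, and leaving out dish 3 of every group, an alternative chosen after seeing the data because that dish stood farther from the others, gave 29 and 25. The median log2 fold change in G245S, 0.096, was 0.11 with upper-quartile normalization, 0.14 with the GC and length trend removed, 0.14 with the replicate block and the trend removed together, and 0.085 to 0.12 with each dish left out. That in R273H, 0.064, was 0.079, 0.086 and 0.085 under the same 3 settings. Between the mutants the count of 3 was 5 in a fit of only the 2 groups, 9 with the replicate block, 6 with the trend removed, 7 with block and trend, 7 without dish 3 of every group, 2 with DESeq2 and 1 to 5 with each dish left out, and the median lay between 0.0036 and 0.020 in the last. Apart from trend removal and the minimum fold change against WT, the shares of all genes that passed under these alternatives are not given here. The counts therefore describe the list alone. Of protein-coding counts alone, the members took 0.768% in WT, 0.809% in G245S and 0.803% in R273H.

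The dish numbers were not taken as pairs, because the correlations of same-numbered dishes in their deviations from the group means were 0.0437 to 0.234 over 12656 genes and not all above 0.1. Each of the 9 dishes did correlate best with a dish of its own number, which is a hint from the data and not from the design. With the replicate block 33 genes passed in G245S (25 higher, 8 lower) and 29 in R273H (22 higher, 7 lower). The share of all genes that passed with the block is not given here, so these counts are not read as a trait of the list. Among the members given per dish, ORC1 passed in both mutants with the block (edgeR adjusted p = 0.0423 and 0.0285) and with the trend removed (0.0357 and 0.038), E2F1 in G245S with the block (0.0457), and TK1 in R273H with the trend removed (2.48e-04, against 0.658). CCNE2, which passed in neither mutant, changed sign in G245S (0.0047 with upper-quartile normalization, 0.015 with the trend removed, 0.019 with block and trend, -0.056 to 0.022 with a dish left out) and in R273H (-0.011, with and without the block, when the trend was removed, and -0.044 to 0.056 with a dish left out), and CCNE1 in R273H lay between -0.0036 and 0.063 with a dish left out. The cause of these shifts was not tested. Every gene given per dish had at least 9.29 CPM in libraries of 18.7 M counts or more.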
